A study of Mus musculus with 24 samples.

Results

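The effect of Cmah loss on gene expression was measured in the gastrocnemius, a fast muscle of the calf, of mice whose dystrophin was intact. The comparison rests on 6 of the 24 arrays of the study, chosen by tissue and genotype as labelled, with 3 Cmah KO arrays set against 3 WT arrays. All 6 animals were males of 2 months with the strain label C57BL/6J, and each array came from another animal by the numbers in the labels. The Cmah KO animals carry a mutation of Cmah modelled on the human one and lack the sialic acid Neu5Gc, per the study's design text. The allele, its backcrossing and whether the WT animals were littermates are not given in the sources used here. Values of 2 further gastrocnemius groups of 3 arrays, Cmah KO mdx and mdx (strain label C57BL6/10J, no dystrophin, same age and sex), and of the Cmah KO and WT hearts are set beside the result. The hearts came from the same animals as the gastrocnemius samples. RNA input was 25 ng per array after an Ovation amplification, and values are log2 intensities of Affymetrix mouse probe sets.

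Cmah encodes the hydroxylase that turns CMP-Neu5Ac into CMP-Neu5Gc, so that cells with the enzyme place both sialic acids at the ends of their glycans. Humans lack the enzyme, and loss of Cmah is known to worsen the muscle disease of mdx mice. Sialic acids are made by Gne, Nans, Nanp and Cmas, carried into the Golgi by Slc35a1, attached by sialyltransferases, removed by neuraminidases and read by Siglec receptors on immune cells.

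No gene passed the test between Cmah KO and WT gastrocnemius at this sample size. Of 29518 probe sets tested, 0 passed a limma adjusted p below 0.05 (0% called). At an unadjusted p below 0.05, 148 were higher (0.501%) and 184 lower (0.623%) in Cmah KO, 332 in all (1.12%), where 1476 would lie if p-values were spread evenly. That count was 770 without WT replicate 1 and 755 without WT replicate 2. The 3 Cmah KO arrays lay entirely above the 3 WT arrays for 524 probe sets (1.78%) and entirely below them for 427 (1.45%), which is 951 without overlap (3.22%). With 1 probe set per gene, 53 of 13232 genes (0.401%) were higher and 75 (0.567%) lower at an unadjusted p below 0.05, 128 in all (0.967%). Groups did not overlap for 214 genes that were higher (1.62%) and 189 that were lower (1.43%), 403 together (3.05%). Over those genes the median log2 difference, Cmah KO minus WT, was 0.04, and 9 genes in 10 lay between -0.53 and 0.52. No probe set showed a Cmah effect that differed with dystrophin (0 of 29518, 0%, 311 at an unadjusted p below 0.05) or between gastrocnemius and heart (0 of 27869, 0%, 700 at an unadjusted p below 0.05) by limma's adjusted p. Higher and lower describe values that did not pass, unless a passed test is named.

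All 6 arrays carried muscle markers at high levels. The 10 muscle fibre markers (Ckm, Acta1, Ttn, Neb, Myh4 and others) averaged 12.61, 12.74 and 13.03 in Cmah KO and 12.94, 12.82 and 12.61 in WT, and each lay above the 40th percentile of all gastrocnemius values (4.66) on every array. Arrays did not group by genotype. Pearson's r over all probe sets tested was highest between Cmah KO replicate 3 and WT replicate 1 (0.966). Pairs within Cmah KO gave 0.892 to 0.937 and pairs within WT 0.880 to 0.926. Cmah KO replicate 1 and WT replicate 3 stood apart in the bioB hybridization control (11.31 and 11.69, against 9.64 to 10.33 on the other 4 arrays) and in the excess of the 3' over the 5' Gapdh control (1.02 and 0.82 log2 units, against 0.36 to 0.52). This set held 1 array of each genotype, so a difference read within it had no replication. Among the hearts, Cmah KO replicate 3 and Cmah KO mdx replicate 2 stood apart with a Gapdh excess of 4.29 and 4.43, and both were in the heart fit. WT replicate 1 and Cmah KO replicate 3 stood apart in lymphoid markers, as described below.

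Of 6 Cmah probe sets, 1 was bright enough to be tested. It read 6.80, 6.55 and 5.73 in Cmah KO and 7.89, 6.98 and 7.28 in WT, so that the groups did not overlap. The difference of -1.03 ± 0.52 (log2, SE) had an unadjusted p of 0.0719 and a limma adjusted p of 1.00. Without dystrophin the same probe set differed by -0.05 ± 0.52 between Cmah KO mdx and mdx. In heart it read 7.72, 6.44 and 5.33 in Cmah KO and 6.09, 8.40 and 5.48 in WT. That difference was -0.16 ± 0.82, or 0.42 ± 0.85 without Cmah KO replicate 3. The other 5 probe sets passed the 40th percentile on fewer than 3 of the 12 gastrocnemius arrays. Whether any of them lies in the mutated part of the gene was not tested, so Cmah mRNA checks the genotype labels weakly. Dmd, which encodes dystrophin, read 10.24, 9.99 and 10.22 in Cmah KO and 10.26, 10.06 and 10.17 in WT at its brightest probe set (-0.01 ± 0.31, limma adjusted p = 1.00).

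No gene of sialic acid metabolism passed the test. Of 14 tested, 9 were higher and 5 lower in Cmah KO (median 0.06). Of these, 0 had an unadjusted p below 0.05 (background 0.967%), and Cmah alone was without overlap (background 3.05%). Gne, whose product starts sialic acid synthesis, read 6.41, 7.22 and 6.05 in Cmah KO and 6.43, 5.88 and 5.18 in WT (0.73 ± 0.39, unadjusted p = 0.0834). Neu2, a cytosolic neuraminidase, differed by -0.45 ± 0.36, and Slc17a5, which exports sialic acid from lysosomes, by -0.15 ± 0.27. Among 16 sialyltransferases 11 were higher and 5 lower, with a median of 0.09 and a range of -0.54 to 0.74. St3gal1, which caps O-glycans, gave the upper end, at 7.02, 7.72 and 7.71 in Cmah KO and 7.19, 7.46 and 5.59 in WT. Only WT replicate 3 lay apart from the other 5 arrays. St8sia5, which makes complex gangliosides, read 7.39, 7.52 and 7.09 in Cmah KO and 6.33, 7.53 and 6.55 in WT, with WT replicate 2 highest.

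Siglec receptors differed most on single arrays. Of 8 on the array, 6 were tested, 2 higher and 4 lower in Cmah KO with a median of -0.08. Cd22, the B cell Siglec, read 5.20, 4.50 and 7.13 in Cmah KO and 9.81, 4.56 and 4.92 in WT. Siglecg, the other B cell member, read 3.82, 4.50 and 5.48 in Cmah KO and 7.60, 4.11 and 3.97 in WT. For both, WT replicate 1 was highest and Cmah KO replicate 3 second. Without WT replicate 1 all 6 were higher in Cmah KO, with a median of 0.48.

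The lowest p of the comparison belonged to Ctsl, the gene of cathepsin L, a protein-degrading enzyme of lysosomes. The dimmer of its 2 tested probe sets read 4.95, 3.85 and 3.80 in Cmah KO against 7.91, 7.65 and 7.50 in WT, with 2.55 log2 units between Cmah KO replicate 1 and the WT array of highest bioB. The difference was -3.49 ± 0.40 (unadjusted p = 2.04e-06, limma adjusted p = 0.0601), just outside the threshold. It passed under 9 of 19 alternatives, among them the fit without Cmah KO replicate 1 (-3.86, limma adjusted p = 0.0305). In animals without dystrophin it read 4.45, 3.73 and 3.82 in Cmah KO mdx and 8.20, 8.59 and 7.33 in mdx, and here it passed (-4.04 ± 0.40, limma adjusted p = 0.0130), the 1 probe set called of 29518 (0.00339%). In heart it read 3.93, 3.95 and 5.29 in Cmah KO and 7.29, 6.95 and 7.75 in WT (-2.94 ± 0.54, limma adjusted p = 0.686, or -3.39 ± 0.47 without Cmah KO replicate 3), where 0 of 29421 probe sets passed (0%, 250 at an unadjusted p below 0.05, and 143 without that replicate). The Cmah KO values lay near or below the 40th percentile, so the fall may be larger than measured. The brighter probe set of the same gene read 9.66, 10.81 and 11.03 in Cmah KO and 11.60, 10.39 and 10.10 in WT, a difference of -0.19 ± 0.65 with overlapping groups. The 2 probe sets thus disagree.

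Ctsl lies on chromosome 13, as does Cmah and as do 482 of the 13232 genes tested. Of the 24 genes with the smallest p among those without overlap, 12 lower and 12 higher in Cmah KO, 10 lay on chromosome 13. The start regions of 4 of them are shown: Ctsl, Zfp874a and Prxl2c had the smallest p among the genes that were lower without overlap in gastrocnemius, in gastrocnemius without dystrophin and in heart, a pattern that Mcur1 shared, and H3c11 was the higher gene with the smallest p. Each runs 5′ to 3′ on the minus strand from 250 bases before to 50 bases after the start of the gene, from RefSeq on GRCm38.p6, at chr13:64370471-64370770 for Ctsl, chr13:64312661-64312960 for Prxl2c, chr13:67451575-67451874 for Zfp874a and chr13:21783348-21783647 for H3c11. Capitals mark matches to 3 motifs on either strand, of which no match overlaps another. One motif is CCAAT, the CCAAT box. The next is TATAAA, the letters at the heart of many core promoters. The last is GGGCGG, a GC box.
Ctsl: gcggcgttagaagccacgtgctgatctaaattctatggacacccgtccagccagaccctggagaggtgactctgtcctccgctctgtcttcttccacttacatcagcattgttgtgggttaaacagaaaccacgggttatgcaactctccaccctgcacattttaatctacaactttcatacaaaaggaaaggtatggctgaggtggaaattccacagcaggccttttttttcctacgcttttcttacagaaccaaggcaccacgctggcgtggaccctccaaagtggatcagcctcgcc
Prxl2c: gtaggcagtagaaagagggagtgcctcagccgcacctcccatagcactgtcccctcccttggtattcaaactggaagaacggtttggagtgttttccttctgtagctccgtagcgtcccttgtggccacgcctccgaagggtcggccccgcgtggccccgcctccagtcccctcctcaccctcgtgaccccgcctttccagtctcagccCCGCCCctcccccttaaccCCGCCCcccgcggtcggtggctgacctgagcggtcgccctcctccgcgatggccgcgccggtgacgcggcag
Zfp874a: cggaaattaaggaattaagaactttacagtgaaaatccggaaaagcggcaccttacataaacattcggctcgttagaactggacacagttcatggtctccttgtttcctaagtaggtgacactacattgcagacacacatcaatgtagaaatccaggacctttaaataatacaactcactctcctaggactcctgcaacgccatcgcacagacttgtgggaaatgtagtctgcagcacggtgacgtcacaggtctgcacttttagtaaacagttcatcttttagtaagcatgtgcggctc
H3c11: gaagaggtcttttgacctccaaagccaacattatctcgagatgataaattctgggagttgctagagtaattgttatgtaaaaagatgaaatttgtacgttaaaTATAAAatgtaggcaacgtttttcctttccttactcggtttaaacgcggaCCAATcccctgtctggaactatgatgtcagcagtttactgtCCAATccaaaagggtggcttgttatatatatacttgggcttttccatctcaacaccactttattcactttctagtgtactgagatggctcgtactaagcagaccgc
H3c11 held 2 CCAAT boxes and 1 TATA motif, Prxl2c held 2 GC boxes, and Ctsl and Zfp874a held none of the 3. Over 32851 start regions of the same length, 37.4% held a CCAAT box, 13.6% a TATA motif and 35.7% a GC box, so the matches are common ones. GC content was 50.0% for Ctsl, 67.3% for Prxl2c, 43.7% for Zfp874a and 39.3% for H3c11, beside a median of 52.7%.

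Zfp874a, a zinc finger gene, read 4.46, 3.48 and 3.50 in Cmah KO and 7.65, 6.05 and 6.12 in WT (-2.80 ± 0.56, unadjusted p = 0.000329). It read 4.94, 3.56 and 3.34 in Cmah KO mdx and 7.37, 7.03 and 6.08 in mdx (-2.88 ± 0.56), and 5.06, 3.19 and 4.66 in Cmah KO hearts and 6.88, 6.95 and 7.88 in WT hearts (-2.93 ± 0.62). No Cmah-deficient array reached the lowest array of its control in any of the 3 comparisons. Rsl1, which encodes a zinc finger repressor of sex-dependent liver genes in mice, read 5.88, 4.44 and 4.40 in Cmah KO and 7.18, 7.17 and 7.06 in WT (-2.23 ± 0.47). It differed by -2.05 ± 0.47 without dystrophin. In heart it read 6.79, 4.90 and 9.15 in Cmah KO and 7.12, 8.39 and 7.54 in WT, with Cmah KO replicate 3 above all 3 WT hearts. That difference was -0.74 ± 0.87, or -1.84 ± 0.64 without Cmah KO replicate 3. The Rsl1 probe set is of the x_at type, whose probes can match related genes, and the zinc finger genes of this cluster are close relatives.

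Prxl2c, a peroxiredoxin-like gene next to Ctsl in the gene order, read 7.99, 8.60 and 8.54 in Cmah KO and 10.20, 9.81 and 9.54 in WT (-1.47 ± 0.31, unadjusted p = 0.000532). The difference was -2.01 ± 0.31 without dystrophin and -2.16 ± 0.56 in heart, or -1.67 ± 0.48 there without Cmah KO replicate 3. A second Prxl2c probe set went the other way, at 5.71, 6.92 and 7.45 in Cmah KO and 5.77, 6.07 and 5.64 in WT (0.87 ± 0.45). Mcur1, a regulator of mitochondrial calcium uptake and the brightest of these genes, read 9.65, 9.19 and 9.59 in Cmah KO and 10.42, 10.43 and 10.09 in WT (-0.84 ± 0.25). It differed by -1.11 ± 0.25 without dystrophin and by -1.92 ± 0.74 in heart, or -0.83 ± 0.35 there without Cmah KO replicate 3. Unc5a, a netrin receptor gene, read 4.78, 4.42 and 4.66 in Cmah KO and 5.62, 5.90 and 6.01 in WT (-1.22 ± 0.27). It differed by -1.40 ± 0.27 without dystrophin and by 0.17 ± 0.46 in heart, where its levels of 4.08 to 4.84 in Cmah KO and 4.09 to 4.65 in WT overlapped.

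H3c11, a replication-dependent histone H3 gene, was higher at 8.17, 8.33 and 8.02 in Cmah KO against 5.83, 5.88 and 7.17 in WT (1.88 ± 0.41, unadjusted p = 0.000642). In heart it read 5.12, 6.32 and 5.70 in Cmah KO and 2.91, 4.56 and 3.62 in WT (2.02 ± 0.50). Without dystrophin the groups overlapped, at 6.27, 6.71 and 7.21 in Cmah KO mdx and 6.83, 6.20 and 5.88 in mdx (0.43 ± 0.41). The test of the difference between both readings gave 1.45 ± 0.58 (limma adjusted p = 1.00). Cdk7, the kinase of the general transcription factor TFIIH, differed by 0.93 ± 0.29 at 1 probe set and by -0.20 to 0.69 at 4 others. Its brightest probe set was among the others, at 0.03. Nhlrc1, the gene of the ubiquitin ligase malin, differed by 0.95 ± 0.29 and by 0.35 ± 0.29 without dystrophin.

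**Figure D1:**
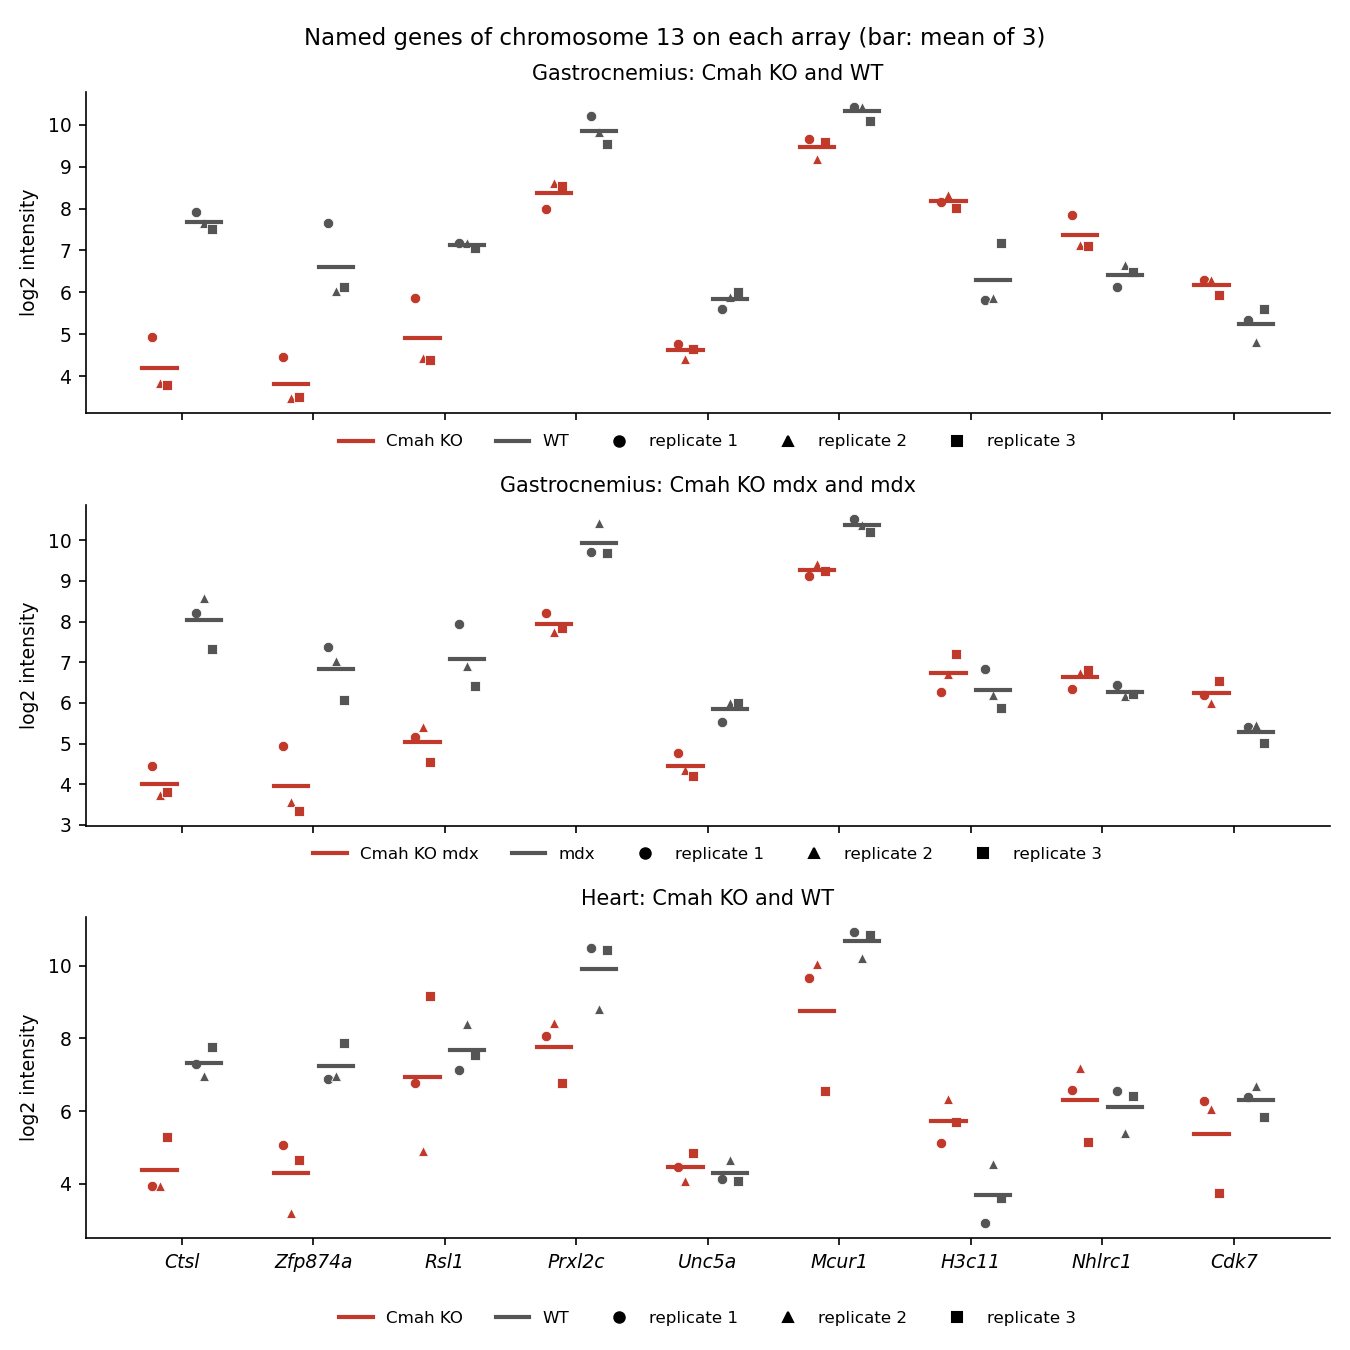
Log2 intensity (y axis) of 9 of the 10 named genes of chromosome 13 (x axis) on each array, with Cmah-deficient animals in red left of their controls in grey, 3 arrays a group, marker shape giving the replicate and bars the group mean. Ctsl sits between 3.80 and 4.95 in Cmah KO and between 7.50 and 7.91 in WT gastrocnemius, and its groups stay apart in all 3 panels.

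The animals without dystrophin were not used to choose these genes, although the fit shared 1 estimate of the spread. All 10 genes of chromosome 13 had the same direction in Cmah KO mdx against mdx, 8 of them with an unadjusted p below 0.05 there, against a background of 0.928% of probe sets. Of the 14 named genes on other chromosomes, 6 had the same direction and 1 an unadjusted p below 0.05. The probe set used was not the brightest of its gene for 3 of the 10 genes of chromosome 13 and for 7 of the 14 others. In heart, whose samples came from the same animals, 8 of 10 genes of chromosome 13 and 10 of 13 others had the same direction, and 5 and 1 an unadjusted p below 0.05 (background 0.85%). The median log2 difference over all heart probe sets tested was -0.37, so most probe sets were lower there. Of the named genes, 11 of 12 lower and 7 of 11 higher ones had the same direction in heart. Without heart Cmah KO replicate 3 that median was -0.02. The same direction then held for 9 of 10 genes of chromosome 13 and 10 of 13 others. Within both sets of arrays formed by the bioB control all 24 kept their direction, which their choice for lack of overlap fixes.

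Chromosome 13 held a larger share of small p-values than any other chromosome in this comparison. With 1 probe set per gene, 14 of 482 genes of chromosome 13 had an unadjusted p below 0.05 (2.9%, 12 lower and 2 higher), against 112 of 12687 genes elsewhere (0.883%). The other chromosomes gave 0% to 1.72%. Groups did not overlap for 24 genes of chromosome 13 (4.98%, 19 lower and 5 higher) and for 376 elsewhere (2.96%), where chromosome 12 reached 5.17%. In Cmah KO mdx against mdx the shares at an unadjusted p below 0.05 were 3.73% (18 genes) and 0.741% (94 genes), with 0.854% over all genes. Of the 14 and 18 genes of chromosome 13, 8 were in both lists (57.1% and 44.4%), and 7 of those had the same direction. Elsewhere 6 genes were in both lists (5.36% of 112 and 6.38% of 94), and all 6 had the same direction. The 8 genes of chromosome 13 were Arsk, Elovl7, Gm10037, Mcur1, Prxl2c, Rsl1, Unc5a and Zfp874a. Elovl7, a fatty acid elongase gene, was the exception, at -1.18 with dystrophin and 1.46 without. Arsk, an arylsulfatase gene, gave -1.49 and -1.87.

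With dystrophin present, the genes with small p-values were spread along the chromosome on both sides of Cmah. An unadjusted p below 0.05 was found for 2 of the 69 genes before Cmah (2.9%), for 3 of 100 at positions 1 to 100 (3%) and for 3 of 100 at positions 101 to 200 (3%). Without dystrophin the counts were 0 of 69, 1 of 100 and 1 of 100 in the same order. The 8 genes in both lists all lay after Cmah, from position 71 (Mcur1) to 374 (Elovl7). H3c11 lies at position -12. Of the 10 tested genes to either side of Cmah in gene order, 1 had an unadjusted p below 0.05, beside 0.967% of all genes and 2.9% of those on chromosome 13. It was Hfe, the haemochromatosis gene and a brake on iron uptake, at position -4, with 8.08, 8.02 and 7.50 in Cmah KO and 8.77, 8.38 and 8.73 in WT (-0.76 ± 0.31). Hfe was also lower without overlap in heart, by -2.20 ± 0.92, or -0.73 ± 0.31 without Cmah KO replicate 3, and differed by -0.04 without dystrophin. The direct neighbours Carmil1 and Ripor2 differed by -0.18 ± 0.34 and -0.43 ± 0.42. Gm11346, at position 2, read 3.85, 4.19 and 4.50 in Cmah KO and 6.74, 3.64 and 6.61 in WT (-1.48 ± 0.77), with WT replicate 2 below every Cmah KO array. Between positions 201 and 300 from Cmah, which hold Prxl2c, Ctsl, Rsl1, Zfp874a, Gm10037 and Arsk, 5 of 100 genes had an unadjusted p below 0.05 with dystrophin and 12 of 100 without. Between positions 301 and 412 the counts were 1 and 4 of 112. Any stretch of chromosome 13 inherited along with the Cmah mutation would be shared by all groups that carry it, so an effect of such a stretch cannot be told apart from one of Cmah by this design.

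**Figure D2:**
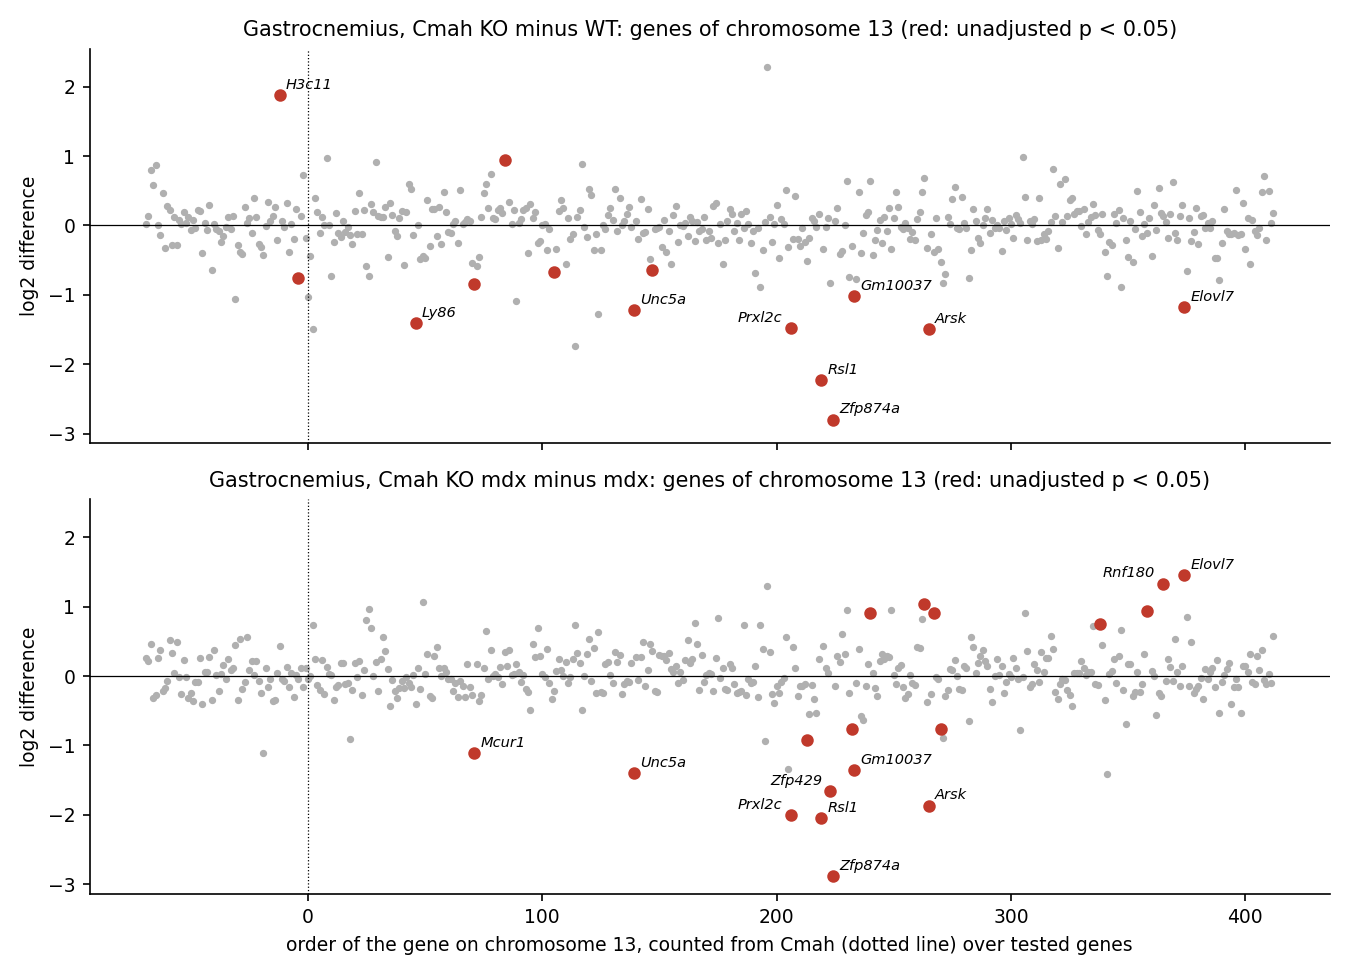
Log2 difference (y axis) of each tested gene of chromosome 13 by its order from Cmah (x axis, dotted line at Cmah), for Cmah KO minus WT above and Cmah KO mdx minus mdx below, 1 probe set per gene. Red points have an unadjusted p below 0.05, and those with a difference above 1 in size are named, except 1 gene not reported here. Zfp874a, Rsl1, Prxl2c and Arsk lie low in both panels, whereas Ctsl is drawn at its brighter probe set and is not marked.

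The other 14 named genes lay on other chromosomes. Trim6, a ubiquitin ligase of the interferon response, read 3.21, 3.58 and 4.33 in Cmah KO and 4.83, 5.32 and 5.25 in WT (-1.43 ± 0.33, limma adjusted p = 1.00), but 0.49 ± 0.33 without dystrophin. All 3 Cmah KO values lay below the 40th percentile (4.66), and the Trim6 difference ranged from -1.74 to -0.48 over the alternatives run. Pclaf, a PCNA-binding gene of dividing cells, read 5.73, 5.77 and 5.86 in Cmah KO and 7.23, 6.76 and 7.95 in WT (-1.53 ± 0.45). Mitd1, a gene of abscission at the end of cell division, differed by -1.10 ± 0.30. Map3k20, a stress kinase gene, differed by -1.20 ± 0.30 at a dim probe set and by 0.02 ± 0.24 at its brightest, which lay between 12.12 and 12.42 on all 6 arrays. Fbn2 (fibrillin-2) and the pseudogene Pisd-ps3 differed by -1.22 ± 0.37 and -1.59 ± 0.50. None of these 6 lower genes was lower without dystrophin, and all 6 were lower in heart, also without Cmah KO replicate 3 there.

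Among the higher genes, Rasd2, a Ras-related GTPase gene, read 10.16, 9.21 and 9.06 in Cmah KO and 7.76, 8.25 and 7.58 in WT (1.61 ± 0.49), and 1.76 ± 0.74 at its second probe set. It differed by 1.60 in heart and by 0.64 ± 0.49 without dystrophin. Selp, the adhesion molecule P-selectin of activated endothelium and platelets, whose ligands carry sialic acid, read 7.96, 6.70 and 8.08 in Cmah KO and 6.36, 6.02 and 6.61 in WT (1.25 ± 0.39). Its second probe set read 5.18, 4.95 and 6.01 in Cmah KO and 4.79, 5.43 and 7.52 in WT (-0.53 ± 0.61). The other 13 endothelial markers, Pecam1, Cdh5 and Kdr among them, had no unadjusted p below 0.05 (background 0.967%). Prkar1b, a regulatory subunit of protein kinase A, differed by 1.12 ± 0.33, Katnal1, a microtubule-severing enzyme gene, by 0.94 ± 0.29, and Masp1, a protease of the lectin pathway of complement, by 0.91 ± 0.29. Katnal1 had an opposite value of -0.54 ± 0.33 at its brightest probe set. Hook2, Fbxl20 and 0610040J01Rik differed by 0.79 to 0.91.

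Cell cycle genes were mostly lower in Cmah KO. Of 21 tested, 18 were lower and 3 higher, with a median of -0.59, beside 0.04 over all genes. Groups were without overlap for 6, all lower (background 1.43%), and 2 had an unadjusted p below 0.05 (background 0.567%). Mki67, which encodes the proliferation marker Ki-67, read 5.50, 4.99 and 5.17 in Cmah KO and 6.95, 6.01 and 7.74 in WT (-1.68 ± 0.63, unadjusted p = 0.0205, limma adjusted p = 1.00). Birc5, the gene of the mitotic protein survivin, read 4.84, 6.10 and 5.03 in Cmah KO and 6.77, 6.75 and 6.60 in WT (-1.39 ± 0.65). Prc1, a midzone protein gene, differed by -1.30 ± 0.66, and Nusap1, a spindle gene, by -1.64 ± 0.75 with overlapping groups. The median was -0.49 without WT replicate 1, -0.85 without Cmah KO replicate 3 and -0.52 without both. It had the opposite sign without dystrophin, at 0.53 in Cmah KO mdx against mdx. Levels were low, and with low values raised to the 40th percentile the median was -0.31.

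Immediate early genes, which respond within minutes to stimuli, leaned the other way. Of 16 tested, 15 were higher and 1 lower in Cmah KO (median 0.58). Of these, 0 were without overlap (background 3.05%) and 0 had an unadjusted p below 0.05 (background 0.967%). Egr1, a zinc finger factor of this class, read 12.46, 10.44 and 11.38 in Cmah KO and 10.04, 11.40 and 10.15 in WT (0.90 ± 0.57). Fos, a subunit of the AP-1 transcription factor, read 11.54, 10.13 and 12.22 in Cmah KO and 8.91, 11.21 and 9.97 in WT (1.26 ± 0.62). Junb read 5.57, 4.57 and 6.41 in Cmah KO and 4.75, 5.11 and 3.89 in WT. In Fos and Junb Cmah KO replicate 3 was highest and Cmah KO replicate 2 fell inside the WT range. The median was 0.27 without Cmah KO replicate 3, and -0.09 in Cmah KO mdx against mdx.

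Heat shock genes shared that array pattern. Hspa1a and Hspa1b, which encode the inducible chaperone HSP70, had unadjusted p-values of 0.0176 and 0.0378. Hspa1a read 7.08, 6.54 and 9.24 in Cmah KO and 5.89, 6.61 and 5.15 in WT (1.74 ± 0.63), and Hspa1b 12.08, 11.10 and 12.47 in Cmah KO and 10.16, 11.51 and 11.05 in WT (0.97 ± 0.42). Without Cmah KO replicate 3 the differences were 0.93 (unadjusted p = 0.0838) and 0.68 (unadjusted p = 0.156). Over the 18 heat shock and unfolded protein genes, 13 were higher and 5 lower (median 0.19), and without Cmah KO replicate 3 the median was -0.03. Of 16 circadian clock genes 14 were higher and 2 lower (median 0.24), and the median was -0.22 in Cmah KO mdx against mdx. Ciart, a repressor in the clock, read 7.34, 8.73 and 9.22 in Cmah KO and 7.29, 7.64 and 6.66 in WT (1.23 ± 0.49, unadjusted p = 0.0282). Without Cmah KO replicate 3 its difference was 0.83 ± 0.51 (unadjusted p = 0.131). Dbp, an output gene of the clock, read 12.14, 12.06 and 11.57 in Cmah KO and 11.71, 11.38 and 11.59 in WT.

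**Figure D3:**
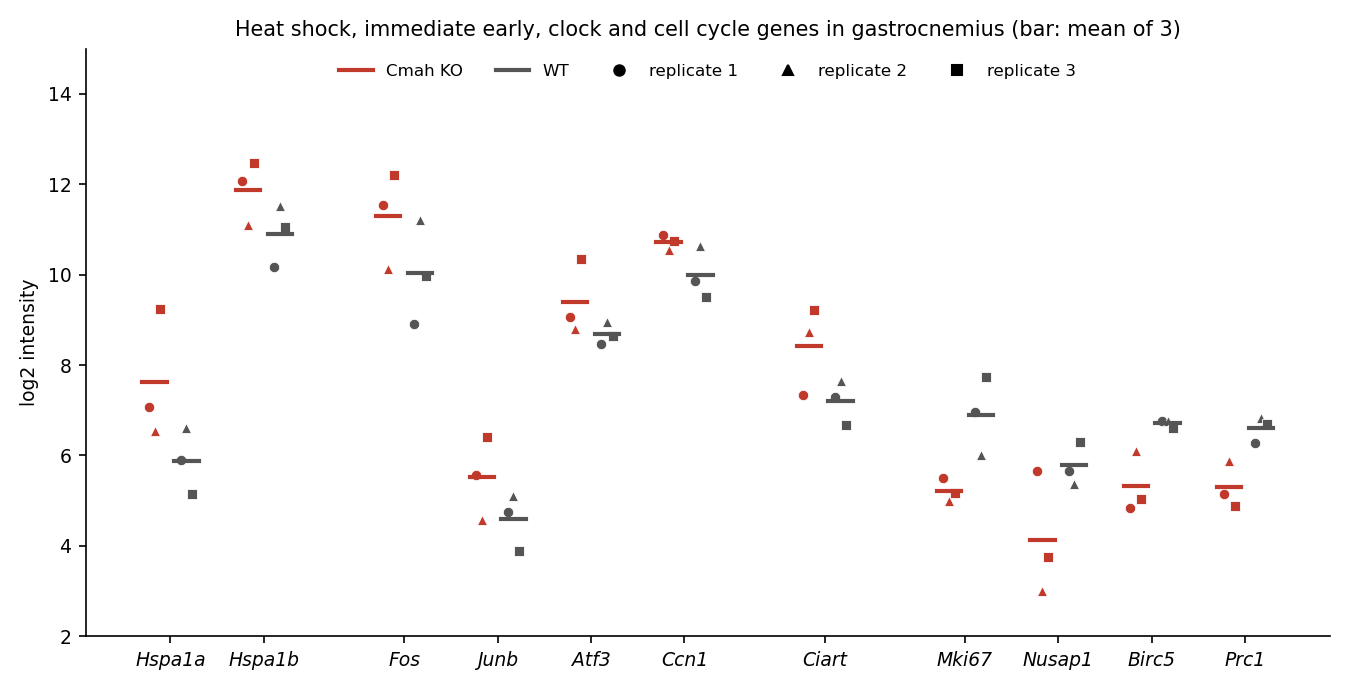
Log2 intensity (y axis) on each gastrocnemius array of 11 heat shock, immediate early, clock and cell cycle genes (x axis), Cmah KO in red left of WT in grey, marker shape giving the replicate and bars the mean of 3 arrays. Cmah KO replicate 3 is the highest array for Hspa1a, Hspa1b, Fos, Junb, Atf3 and Ciart, and Mki67, Birc5 and Prc1 are lower on all 3 Cmah KO arrays.

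Each WT array was read for immune content, and WT replicate 1 carried lymphoid markers far above the others. Of 18 B cell and immunoglobulin genes on the array, 5, 3 and 17 lay above the 40th percentile in Cmah KO and 17, 7 and 6 in WT. The 10 that passed the filter averaged 5.06, 4.69 and 7.20 in Cmah KO and 9.50, 5.24 and 4.83 in WT. WT replicate 1 was the highest array for all 10, and for 17 of the 18, and Cmah KO replicate 3 was second in 16 of those 17. Cd79b, a chain of the B cell receptor complex, read 4.63, 4.62 and 8.00 in Cmah KO and 10.42, 4.80 and 3.53 in WT. T cell genes followed, with 6, 5 and 14 of 15 above the 40th percentile in Cmah KO and 15, 5 and 5 in WT. Cd3d, a T cell receptor chain, read 4.63, 3.82 and 7.34 in Cmah KO and 9.54, 5.53 and 4.19 in WT.

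Markers of lymph node stroma were high on the same arrays. Of 6 on the array, 2, 2 and 4 lay above the 40th percentile in Cmah KO and 6, 2 and 2 in WT. Cxcl13, the chemokine that gathers B cells in follicles, read 6.10, 5.01 and 9.23 in Cmah KO and 10.69, 6.44 and 6.46 in WT. Adipocyte markers averaged 8.61, 8.96 and 9.40 in Cmah KO and 10.24, 8.89 and 7.93 in WT, with WT replicate 1 highest for 9 of 10. In whole tissue, more cells of a type cannot be told apart from more RNA per cell.

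The group difference of these lists turned with that 1 array. The B cell median was -0.88 (0 of 10 higher) and became 0.50 (9 of 10 higher) without WT replicate 1, -1.60 without Cmah KO replicate 3 and -0.13 without both. The T cell median was -0.50, then 0.53, -1.18 and -0.04 in the same order. Genes of MHC class II presentation, such as H2-Aa and Cd74, averaged 7.18, 7.88 and 8.84 in Cmah KO and 10.25, 7.63 and 7.07 in WT, and their median of -0.15 (0 of 8 higher) became 0.57 (8 of 8 higher) without WT replicate 1. For macrophage genes the median of -0.17 became 0.16, for adipocyte genes -0.10 became 0.45, and for interferon response genes -0.38 (12 of 14 lower) became 0.05. Of these, Oas2, an antiviral sensor of double-stranded RNA, read 6.73, 5.96 and 6.20 in Cmah KO and 6.86, 6.60 and 6.82 in WT (-0.46 ± 0.31). In the heart of the animal behind WT replicate 1 the B cell list averaged 4.87, the lowest of the 6 hearts, at 6.63, 7.57 and 6.09 in Cmah KO and 5.08, 5.49 and 4.87 in WT.

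**Figure D4:**
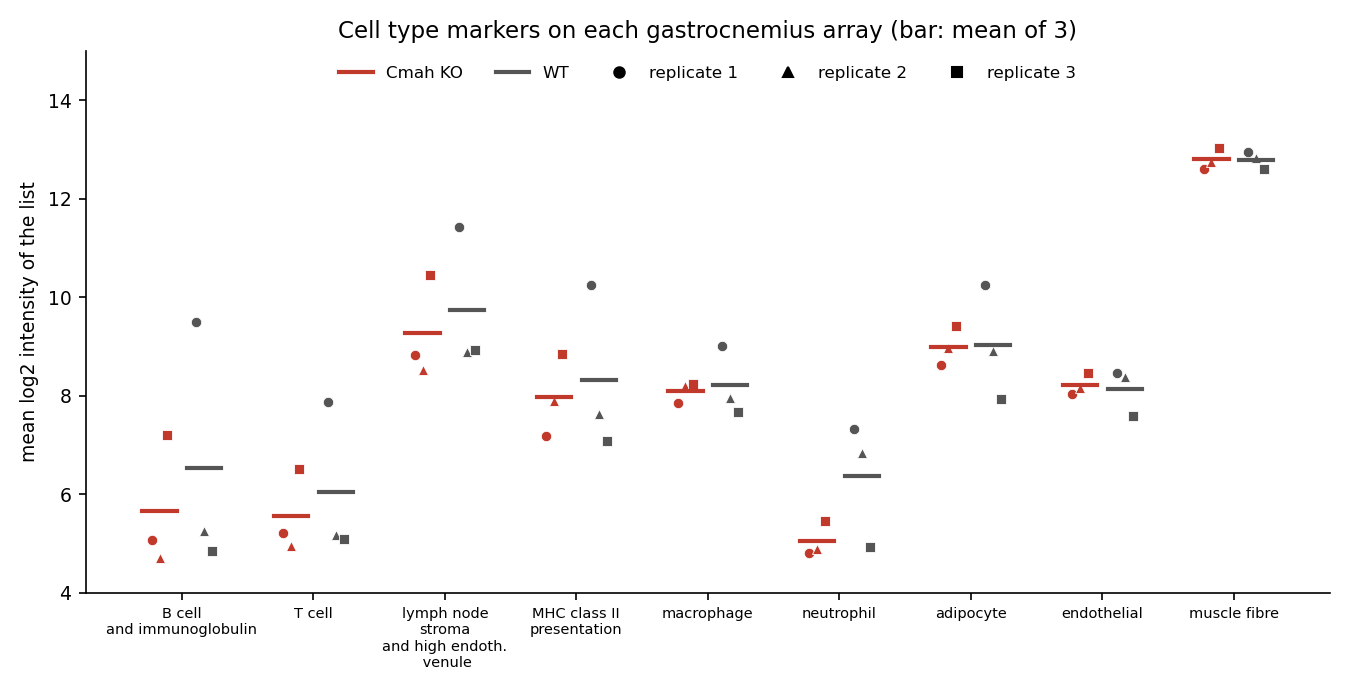
Mean log2 intensity (y axis) of the tested members of 9 marker lists (x axis) on each gastrocnemius array, Cmah KO in red left of WT in grey, marker shape giving the replicate and bars the mean of 3 arrays. For the B cell list Cmah KO replicate 3 (7.20) is second to WT replicate 1 (9.50), while muscle fibre markers stay between 12.61 and 13.03.

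Neutrophil genes differed by array in another way. S100a8, a subunit of the calprotectin complex, read 4.58, 4.79 and 6.68 in Cmah KO and 10.62, 9.68 and 5.09 in WT (-3.11 ± 1.13, unadjusted p = 0.0182, limma adjusted p = 1.00), and S100a9 read 5.30, 5.27 and 7.17 in Cmah KO and 11.04, 9.79 and 6.01 in WT. Without WT replicate 1 the S100a8 difference was -2.04 (unadjusted p = 0.0913). Both were high in 2 WT arrays and low in the third, WT replicate 3, which overlapped with Cmah KO. Mmp8, neutrophil collagenase, was lower without overlap but near the floor, at 2.97, 2.79 and 3.03 in Cmah KO and 4.34, 4.39 and 4.68 in WT. Of 12 neutrophil genes on the array, 4, 5 and 4 lay above the 40th percentile in Cmah KO and 9, 8 and 5 in WT. The median of the 7 tested was -1.48, with 2 higher and 5 lower, 4 of the lower ones at an unadjusted p below 0.05 (background 0.567%), and -0.90 without WT replicate 1. Without dystrophin the median was 0.16. Hdc, the histidine decarboxylase of mast cells, was higher without overlap, at 6.70, 7.19 and 7.45 in Cmah KO and 6.19, 6.22 and 5.92 in WT (1.00 ± 0.44), while the 8 tested mast cell genes had a median of 0.12.

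Genes of muscle structure and metabolism had medians near 0. Median log2 differences were -0.02 for 12 fast fibre genes, -0.09 for 12 slow fibre genes and 0.01 for 13 glycolytic genes. They were 0.03 for 25 respiratory chain genes and 0.06 for 21 genes of fatty acid oxidation. Each of these lists had 0 genes with an unadjusted p below 0.05, beside 0.967% of all genes. Without WT replicate 1 the medians were -0.01, -0.05, 0.10, 0.07 and 0.24 in the same order. The 25 respiratory chain genes ranged from -0.18 to 0.15. Genes of the dystrophin complex (18 tested, median 0.04) and of dystroglycan glycosylation (14 tested, median 0.03) gave values of the same size. Without WT replicate 1 their medians were 0.14 and 0.09. Within these lists Rxylt1, a xylosyltransferase that extends the dystroglycan glycan, was higher without overlap, at 9.23, 9.63 and 9.67 in Cmah KO and 9.16, 9.13 and 8.79 in WT (0.48 ± 0.29). Of 13 neuromuscular junction genes 9 were higher and 4 lower (median 0.18), and Rapsn, the clustering protein of acetylcholine receptors, was without overlap (0.59 ± 0.36). Colq, the collagen tail of acetylcholinesterase, leaned the other way at low levels, with 4.50, 4.00 and 4.06 in Cmah KO and 4.43, 4.82 and 5.11 in WT. Acaa2, a thiolase of mitochondrial fatty acid oxidation, was higher without overlap by a small step, at 11.63, 11.63 and 11.54 in Cmah KO and 11.45, 11.30 and 11.41 in WT (0.21 ± 0.26). Nos1, the neuronal nitric oxide synthase bound to the dystrophin complex, differed by 0.65 ± 0.49 with overlapping groups. Sln (sarcolipin), an inhibitor of the calcium pump, read 9.06, 8.76 and 7.01 in Cmah KO and 9.24, 8.48 and 9.56 in WT, where Cmah KO replicate 3 alone lay apart.

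Embryonic and regenerating muscle genes had a median of 0.01 (9 higher, 7 lower), and 0 of 16 had an unadjusted p below 0.05 (background 0.967%). Groups were without overlap for 2, the developmental myosins, both lower (background 1.43%). Myh3, embryonic myosin, read 7.07, 6.48 and 6.78 in Cmah KO and 7.60, 7.54 and 7.34 in WT (-0.72 ± 0.40). Myh8, perinatal myosin, read 4.93, 4.48 and 4.10 in Cmah KO, near the 40th percentile (4.66), and 5.11, 5.02 and 6.37 in WT (-0.99 ± 0.53). Without dystrophin they differed by 0.33 and -0.38. Among 19 matrix genes 16 were lower and 3 higher (median -0.25, or -0.20 without WT replicate 1). Col5a2, a chain of fibrillar collagen V, was without overlap at 9.96, 10.03 and 10.30 in Cmah KO and 11.26, 10.48 and 10.33 in WT (-0.59 ± 0.35), and Postn (periostin) read 7.47, 8.42 and 9.11 in Cmah KO and 10.61, 8.45 and 8.78 in WT. For both, WT replicate 1 was the highest array. Of 9 tendon genes 6 were higher and 3 lower in Cmah KO (median 0.13), with 0 without overlap (background 3.05%). Tnmd (tenomodulin), 1 of the lower ones, read 9.47, 9.55 and 9.91 in Cmah KO and 10.29, 9.87 and 10.44 in WT (-0.56 ± 0.30).

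Lysosomal genes gave no shared direction, with 9 of 25 higher and 16 lower (median -0.04, or 0.26 without WT replicate 1). Ctsl is among the 25 at its brighter probe set (-0.19 ± 0.65, overlapping groups). Npc1, the cholesterol transporter of lysosomes, was without overlap at 8.79, 8.70 and 9.16 in Cmah KO and 8.59, 8.34 and 8.06 in WT (0.56 ± 0.26, unadjusted p = 0.0513). Complement genes had a median of -0.04 (0.25 without WT replicate 1), tendon genes 0.13, Schwann cell genes -0.05, smooth muscle and pericyte genes 0.11, fibroblast genes -0.21, endothelial genes -0.01 and genes of muscle growth and atrophy 0.10. Of 5 erythroid genes on the array 2 were tested, Alas2 at 1.39 ± 0.71 and Slc4a1 at -0.41 ± 0.64.

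**Figure D5:**
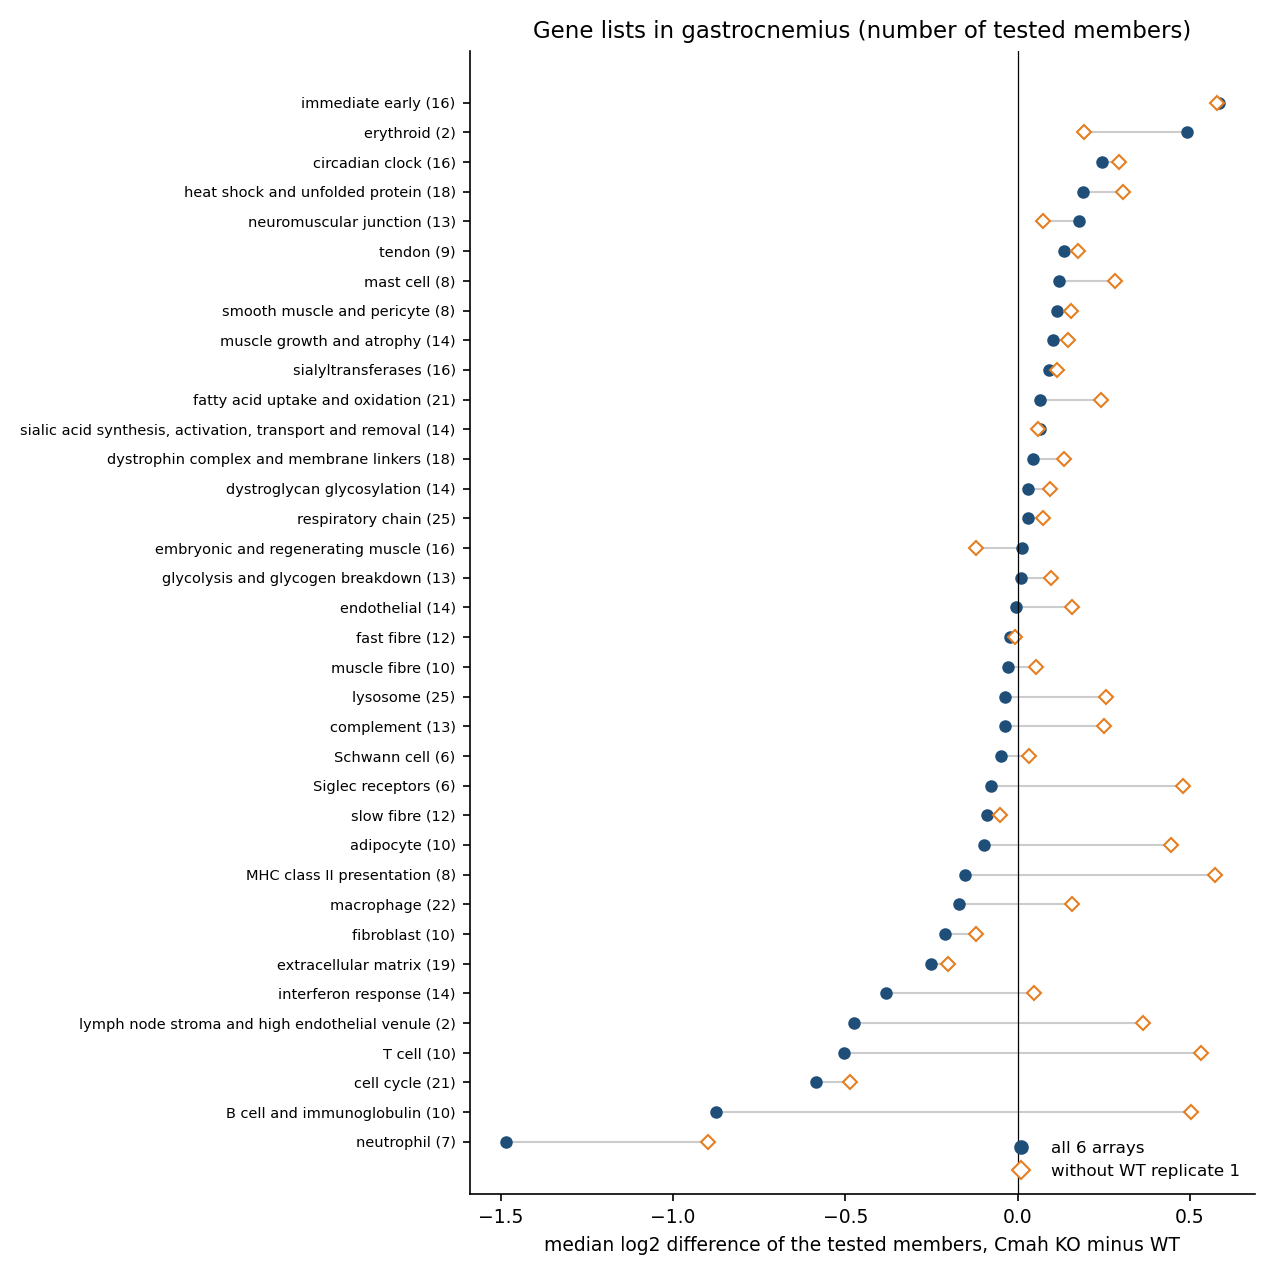
Median log2 difference, Cmah KO minus WT (x axis), of the tested members of each of 36 gene lists (y axis, number of members in brackets), over all 6 arrays (filled circles) and without WT replicate 1 (open diamonds). B cell, T cell and MHC class II lists cross 0 when that array is left out, whereas immediate early (0.58 and 0.58) and cell cycle (-0.59 and -0.49) lists do not.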

How the data were processed

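The authors' deposited intensity values were linear. GCOS and RMA are named in the submitters' processing notes without versions, so summarised and normalised probe sets were taken as given. Their log2 was taken here and the 64 control probe sets were left out. Of 45037 others, 34945 have 1 gene symbol in the platform annotation, and 34741 of these matched the GRCm38.p6 gene table, used for names and gene order. The filter kept probe sets above the 40th percentile on 3 or more of the 12 gastrocnemius arrays. A model of 4 group means was fitted with limma 3.58.1 (R 4.3.3, lmFit and eBayes, two-sided, Benjamini-Hochberg over all probe sets tested); errors are SE with n = 3 arrays a group. The tissue difference used 24 arrays with animal as a random block (consensus correlation 0.22). The fit was tested on simulated data. With 3 arrays a group, precision is limited by their number. Lists (36, 561 of 562 entries matched) used the brightest tested probe set per gene and were given no test. Named genes were Cmah, Dmd and Ctsl, the 12 with the smallest p in each direction without overlap, up to 4 list members with the smallest p, markers that set 1 array apart, and the 10 neighbours of Cmah on each side; Arsk, Elovl7 and Gm10037 were chosen after their values were seen. The values of 1 of the 24 genes named by p are not reported here. Members and lists were chosen with earlier results of these data known. Tried alternatives covered the filter, scaling, variance model, arrays in the fit, blocks and leaving out arrays.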

Additional observations from a re-analysis of the deposited data

How the results depend on the processing

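The count of changed probe sets, 0, became 1, in each case Ctsl, with a stricter filter, with low values raised to the 40th percentile, with quantile normalization, with all 24 arrays and animal as a block, with array weights, with the Gapdh difference as covariate and with the bioB set as a block (added after the data were seen). It was also 1 with the replicate block, although the replicate numbers do not pair the samples (r of same-numbered deviations -0.44 to 0.35). Leaving out 1 array gave 0 to 1, and 1 only without Cmah KO replicate 1. No filter, median centring, the 6 arrays alone, a variance trend with robust fit and leaving out the 4 arrays of high bioB gave 0. The 332 probe sets at an unadjusted p below 0.05 became 855 with the Gapdh covariate, 874 with the bioB block, 605 without a filter, 157 with the stricter one, 218 with all 24 arrays and 257 to 770 with 1 array left out. Ctsl ranged from -3.95 to -2.93 with limma adjusted p between 0.00395 and 0.793 over 19 alternatives. The counts for the dystrophin and tissue differences stayed at 0 under all alternatives run. Among Cmah, Dmd, Ctsl and the 24 genes named by p, signs turned only for Dmd and Ctsl, at differences near 0. Dmd turned at its second brightest probe set (0.000176 with array weights, and -0.28 to 0.19 with 1 array left out), at its brightest (0.017 with median centring, and -0.065 to 0.065 with 1 array left out) and at a dim one (-0.34 to 0.64 with 1 array left out). The brighter Ctsl probe set gave -0.49 to 0.26 with 1 array left out. Elsewhere 540 values of these genes kept direction and side of the threshold, while 669 list medians moved by less than the replicate spread and 15 by more. Some list medians changed sign without WT replicate 1, such as B cell (-0.88, then 0.50) and lysosome (-0.04, then 0.26). List members, for which only leaving out WT replicate 1, Cmah KO replicate 3 or both was run, turned by larger amounts than Dmd and Ctsl, such as Cd22 (-0.82, but 0.87 without WT replicate 1). The causes were not tested. Values near the 40th percentile bound the size of low differences poorly.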
